A study of Macaca mulatta with 8 samples.

Results

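Müller glia are the radial glia that span the retina from its inner surface to the photoreceptors. They take up glutamate and turn it into glutamine, carry potassium and water out of the tissue, bind and pass on retinoids, and secrete proteins into the space around the neurons. This report follows 10 genes of these tasks, chosen by symbol among 26533 counted features, in Müller glia and in the other cells of 2 macaques. They are GLUL and SLC1A3 of the glutamate cycle, KCNJ10 and AQP4 of potassium and water transport, CRABP1 for retinoic acid, TF and GPX3 for iron and peroxides, and the Wnt antagonists FRZB and WIF1 with the related DKK3. Each of the 10 was found as 1 feature, and all 10 passed the filter on low counts in every comparison.

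The 8 libraries were made from retinal punches with a 5-prime droplet single-cell kit. NHP1, a male of 5 years that received AAV2-CAG-hRPE65 in both eyes, gave retina labelled uninjected from each eye. Each eye of NHP2, a male of 6 years, gave a bleb made with AAV8-GRK1-mScarlet, another made with AAV8-GRK1-hRPGR, and uninjected retina. A bleb is the retina lifted by a subretinal injection, CAG is a promoter active in most cells, and GRK1 is a promoter of photoreceptors, not of glia. By the study's methods all eyes had triamcinolone beside the eye, and the left eyes had adalimumab in the vitreous as well, so eye and adalimumab cannot be told apart. With 1 animal per NHP number there are no replicate animals, and each group of 2 libraries is the right and the left eye of 1 animal.

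Libraries held 90634306 to 146519011 UMIs, and 83192 cells remained after filters and removal of doublets. Of these, 6434 fell into 4 clusters named Müller glia-like from 11 detected markers that include none of the 10 genes (443 to 1176 cells and 3772810 to 8571009 UMIs per library, 4.48% to 10.8% of the cells). No marker of that list was at 0 in any library, and their summed level lay between 24029 and 31316 CPM (the gene in parts-per-million of the UMIs summed over the class). Another 1080 cells in 4 clusters scored highest for Müller glia but did not meet the naming rule and were left out, 2 of these clusters with 78.2% and 36.1% of predicted doublets. Rod markers in the Müller glia-like sums, which depend on how much free RNA a sum holds and on how much of that RNA is from rods, ran from 2028 CPM in the left mScarlet bleb to 5245 CPM in the left uninjected area of NHP2. The left NHP1 library held huRPE65 at 85.8 CPM in these cells and the right uninjected library of NHP2 held coRPGR at 32.3 CPM, although both are labelled uninjected.

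The right uninjected library of NHP2 stood apart from its left partner. The summed level of 16 interferon-response genes in its Müller glia-like cells was 27697 CPM against 2811 CPM in the left one. It was 28081 (right) and 5454 CPM (left) in the hRPGR blebs, 17465 and 15301 CPM in the mScarlet blebs, and 580 and 1533 CPM in NHP1. Clusters 7 and 31, the pair with high interferon genes, held 98.9% of the Müller glia-like cells of the right uninjected area, 98.5% and 26.1% of the right and left hRPGR blebs, and 99.7% and 96.8% of the mScarlet blebs. In the left uninjected area and in NHP1 they held under 1% (0.850%, 0.903% and 0.10%), and clusters 25 and 30 held the rest. Comparisons that use this library are therefore given with and without it, the left uninjected library then being assumed to vary like the other groups.

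Promoter windows of 3 members are shown, taken from the RefSeq annotation of Mmul_10 as the 250 bases before the annotated start of the gene. GPX3 and SLC1A3 are shown because they had the lowest p-values of the 10 genes between areas. WIF1 is shown as a member with a smaller change over all cells (log2 fold change -0.17 in the mScarlet blebs against the uninjected area). It is not an unchanged gene: AQP4 (-0.04) and CRABP1 (0.09) moved less, and WIF1 had -0.73 in the shallower clusters described later. Capitals mark matches, on either strand, to 3 sets of letters: ACAAT (the core bound by SOX factors), TGTTCT (a core bound by the glucocorticoid receptor) and TTCNNNGAA (a site of STAT factors). The windows read, from 5′ to 3′:
GPX3 (chr6:148467911-148468160, plus strand): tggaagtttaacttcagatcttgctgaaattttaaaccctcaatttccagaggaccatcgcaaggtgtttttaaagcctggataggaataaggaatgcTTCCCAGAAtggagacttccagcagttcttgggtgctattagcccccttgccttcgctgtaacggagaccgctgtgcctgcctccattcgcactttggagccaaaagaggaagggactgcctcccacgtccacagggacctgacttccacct
SLC1A3 (chr6:36420759-36421008, plus strand): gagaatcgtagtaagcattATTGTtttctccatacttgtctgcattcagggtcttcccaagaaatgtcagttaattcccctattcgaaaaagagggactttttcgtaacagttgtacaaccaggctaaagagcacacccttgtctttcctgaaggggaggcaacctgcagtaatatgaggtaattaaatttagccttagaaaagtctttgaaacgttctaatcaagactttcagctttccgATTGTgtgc
WIF1 (chr11:64698860-64699109, minus strand): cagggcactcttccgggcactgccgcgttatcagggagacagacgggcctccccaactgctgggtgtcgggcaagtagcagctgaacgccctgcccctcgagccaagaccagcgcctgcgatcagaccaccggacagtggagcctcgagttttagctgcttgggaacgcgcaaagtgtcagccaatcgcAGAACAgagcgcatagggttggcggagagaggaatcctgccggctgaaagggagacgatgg

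The GPX3 window held 1 TTCNNNGAA match, which begins 152 bases before the start of the gene. SLC1A3 had 2 ACAAT matches, and WIF1 had 1 match to TGTTCT. Windows could be taken for 8 of the 10 members, since the annotated models of GLUL and TF begin at or within 17 bases of the start codon. ACAAT was found in 2 of the 8 (SLC1A3 and AQP4), TGTTCT in 1 and TTCNNNGAA in 1. Among 17538 windows of protein-coding genes the shares were 21.4%, 10.3% and 5.71%. A match is a description of letters, not of a bound site. The genes lie on chromosomes 1 (GLUL, 39623412 to 39629245, and KCNJ10, 90867165 to 90899832), 2 (TF, 35963412 to 35994941), 6 (SLC1A3, 36421009 to 36505464, and GPX3, 148468161 to 148476737), 7 (CRABP1), 11 (WIF1), 12 (FRZB), 14 (DKK3) and 18 (AQP4).

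All 10 genes had their highest mean level in the Müller glia-like class among the 11 classes named, and in each of the 8 libraries their level there was above that of free RNA, the RNA of barcodes with 100 to 1000 UMIs. The ratio to free RNA ran from 9.34 to 64.7 over the libraries for CRABP1, from 12.9 to 89.6 for DKK3 and from 13.7 to 61.8 for GLUL, and reached 132 for WIF1. The classes come from clustering, so these levels are a description without a test. No cluster was named for astrocytes, endothelial cells or pericytes, so the members' levels in those cells were not compared. In rod-like cells every member was below free RNA in all 8 libraries.

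**Figure D1:**
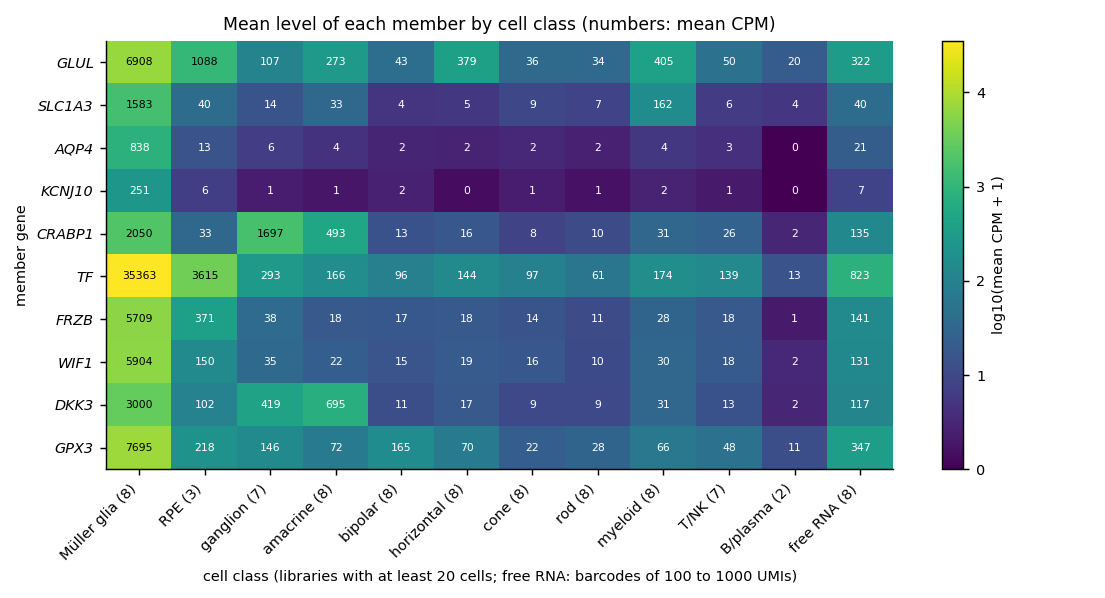
Mean CPM of each member (rows) in each cell class (columns, with the number of libraries that had at least 20 cells of the class) and in free RNA; color is log10(mean CPM + 1). The Müller glia column is the highest in each row, from 251 CPM for KCNJ10 to 35363 CPM for TF, and CRABP1 in ganglion-like cells (1697 CPM) comes nearest to it.

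Several members were also found outside Müller glia. CRABP1, which binds retinoic acid in the cytosol, had 1697 ± 590 CPM (SD, n = 7) in ganglion-like cells, with a range of 973 to 2668 that overlaps the Müller glia-like range of 1793 to 2318 (mean 2050 ± 175, n = 8). Its amacrine-like level varied widely, from 23.8 to 1268 CPM, and was above free RNA in 5 of 8 libraries. DKK3, a secreted glycoprotein of the Dickkopf family, had 695 ± 201 CPM (n = 8) in amacrine-like and 419 ± 122 CPM (n = 7) in ganglion-like cells, above free RNA in each of those libraries, against 3000.5 ± 167 CPM (n = 8) in Müller glia-like cells. Those neuronal levels do not overlap the Müller glia-like ones.

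GLUL encodes glutamine synthetase. RPE-like cells, present in number in 3 libraries only, had 1088 ± 201 CPM (SD, n = 3) of it, and myeloid-like, horizontal-like and amacrine-like cells had 405 ± 92.3, 379 ± 89.1 and 273 ± 65.0 CPM (n = 8 each), near the 322 ± 137 CPM of free RNA. TF, the iron carrier transferrin, had 3615 CPM (1417 to 6565, n = 3) in RPE-like cells against 823 CPM (290 to 1748) in free RNA. SLC1A3, the glutamate and aspartate transporter of glia, was at 162 ± 94.9 CPM (n = 8) in myeloid-like cells against 39.5 ± 17.2 CPM in free RNA. For AQP4, KCNJ10, WIF1 and GPX3 the second level in the order was that of free RNA or of RPE-like cells: 21.0, 7.37, 150 and 347 CPM.

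**Figure D2:**
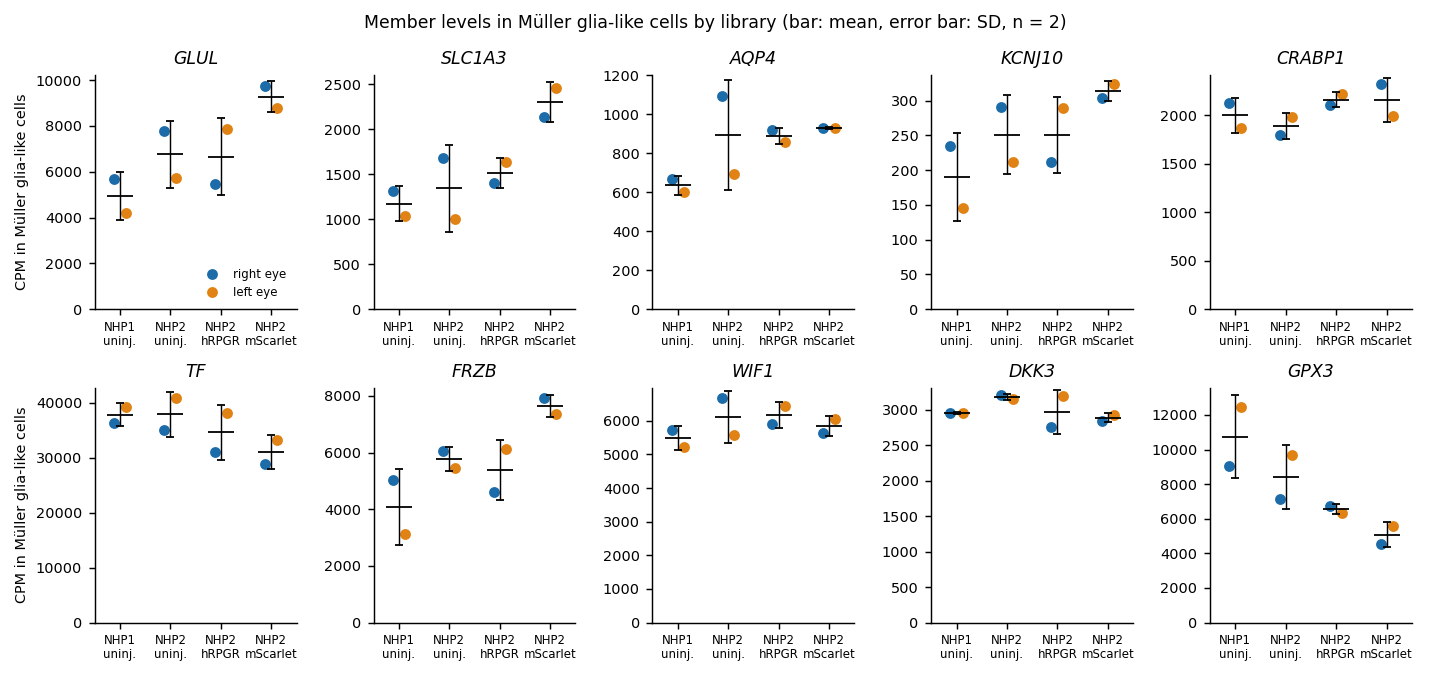
CPM of each member in Müller glia-like cells (y axis, from 0) for the 4 groups (x axis), with the right eye in blue, the left eye in orange, and the mean and SD of the 2 libraries as bars. GPX3 is lowest in the mScarlet blebs (4565 and 5604 CPM), where SLC1A3, GLUL and FRZB are highest, and the 2 eyes of the NHP2 uninjected area lie far apart for AQP4 and SLC1A3.

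Together the 10 genes gave 70693 (right) and 74338 CPM (left) of the Müller glia-like sums in the uninjected area, 61209 and 73107 in the hRPGR blebs, 65217 and 69788 in the mScarlet blebs, and 69142 and 70923 in NHP1. In each eye of NHP2 the uninjected area was the highest, and both mScarlet libraries were below both uninjected ones, while the hRPGR blebs overlapped them. TF made the largest part of each sum, with 34987 (right) and 40838 CPM (left) in the uninjected area and 28833 and 33310 CPM in the mScarlet blebs. The lower sums of the mScarlet blebs do not describe every member. In CPM, 5 members were higher in both mScarlet libraries than in both uninjected ones, and 3 were lower. These groups also did not overlap for 49.9% of all genes tested. The sums were not tested. The question of the comparisons below was whether Müller glia in a bleb differ in these genes from those of the uninjected area of the same animal. Sums per library were tested with edgeR's quasi-likelihood test with Benjamini-Hochberg adjustment, a gene was called at an adjusted p under 0.05, and intervals are 95% and not adjusted. Of the 10 members, 0 were called in any of the 5 comparisons.

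In the mScarlet blebs against the uninjected area, 38 of 12776 genes were called (0.297%; 0.204% raised and 0.0939% lowered), of which 0 were members, and 10 were called with eye as a block, again with 0 members. At an unadjusted p under 0.05, 2 of the 10 members passed, GPX3 lower and SLC1A3 higher, beside 14.7% of all genes (8.02% lowered and 6.72% raised). The median log2 fold change was 0.03 over the members and -0.01 over all genes. In CPM without further scaling, the 2 mScarlet libraries lay outside the 2 uninjected libraries for 8 members, 5 higher and 3 lower, and the same was true of 49.9% of all genes. After division by the TMM factors of the fit, it was 6 members, 3 higher (GLUL, SLC1A3 and FRZB) and 3 lower (TF, DKK3 and GPX3), against 46.8% of genes.

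GPX3, an extracellular glutathione peroxidase that reduces peroxides, had 7123 (right) and 9706 CPM (left) in the uninjected area of NHP2, 6738 and 6331 in the hRPGR blebs, against 4565 and 5604 in the mScarlet blebs. NHP1 had 9067 and 12429 CPM. Both mScarlet libraries were below all others, and the groups did not overlap. The log2 fold change of mScarlet against uninjected was -0.82 (SE 0.206, interval -1.31 to -0.33, adjusted p 0.143 by edgeR). DESeq2 called GPX3 (adjusted p 0.00307) among 3.3% of genes, as did edgeR without the filter on low counts (0.0265, with 1.86% called). Without the right uninjected library its log2 fold change was -1.02 (edgeR adjusted p 0.0285), when 4.52% of genes were called, and without the left one it was -0.58 (adjusted p 0.398). With eye as a block it was -0.82 (adjusted p 0.170).

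SLC1A3 had 1684 (right) and 1004 CPM (left) in the uninjected area, 1398 and 1634 in the hRPGR blebs, against 2141 and 2459 in the mScarlet blebs, with 1313 and 1035 in NHP1. The mScarlet libraries were above all others. The log2 fold change against uninjected was 0.68 (SE 0.253, interval 0.08 to 1.28, edgeR adjusted p 0.286). It was 1.11 without the right uninjected library (adjusted p 0.0285) and 0.36 without the left one (0.657), so the choice of the uninjected library decided the call. Within eyes the log2 ratio was 0.35 (right) and 1.29 (left).

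For GLUL, the partner of SLC1A3 in the glutamate cycle, the uninjected area had 7785 (right) and 5727 CPM (left), the hRPGR blebs 5464 and 7861, and the mScarlet blebs 9745 and 8802, with 5673 and 4209 in NHP1. The mScarlet libraries were the highest, with a log2 fold change of 0.36 (interval -0.20 to 0.91, edgeR adjusted p 0.549). Of 12 other glutamate and GABA genes tested, 0 were called, 5 were lower and 2 higher at an unadjusted p under 0.05, and their median log2 fold change was -0.17.

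KCNJ10, the inward-rectifying potassium channel Kir4.1, had 291 (right) and 211 CPM (left) in the uninjected area, 211 and 289 in the hRPGR blebs, 303 and 323 in the mScarlet blebs, and 234 and 146 in NHP1. AQP4, the water channel of glial end feet, had 1093 and 696 CPM in the uninjected area, 919 and 858 in the hRPGR blebs, 928 and 932 in the mScarlet blebs, and 670 and 603 in NHP1. For AQP4 the 2 uninjected libraries enclosed all 4 bleb libraries. The log2 fold changes in the mScarlet blebs were 0.22 (interval -0.28 to 0.72) and -0.04 (-0.55 to 0.47).

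CRABP1 had 1793 (right) and 1978 CPM (left) in the uninjected area, 2107 and 2212 in the hRPGR blebs, 2318 and 1994 in the mScarlet blebs, and 2125 and 1870 in NHP1. Each bleb library was above both uninjected ones of NHP2 in CPM without further scaling. After TMM scaling this held for the hRPGR blebs and not for the mScarlet blebs. Its log2 fold change in the mScarlet blebs was 0.09 (interval -0.24 to 0.42). None of 12 other retinoid genes tested was called by edgeR, and 2 passed an unadjusted p under 0.05, with 1 in each direction.

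TF had 34987 (right) and 40838 CPM (left) in the uninjected area, 31096 and 38158 in the hRPGR blebs, 28833 and 33310 in the mScarlet blebs, and 36353 and 39328 in NHP1. In NHP2 the left library was above the right one in every area, and the mScarlet libraries were below both uninjected ones. The log2 fold change was -0.38 (interval -0.86 to 0.09, edgeR adjusted p 0.444). Of 13 other iron genes tested, 1 was called: CP, the ferroxidase ceruloplasmin, rose from 246 ± 76.6 to 1140 ± 217 CPM (SD, n = 2 each; log2 fold change 2.12, SE 0.260, edgeR adjusted p 0.0392). Of 20 other antioxidant genes tested, SOD2, the mitochondrial superoxide dismutase, rose from 57.4 ± 2.96 to 222 ± 68.9 CPM (log2 fold change 1.85, SE 0.224, adjusted p 0.0374), while GPX3 was not called.

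The 3 secreted members around Wnt signaling gave different values. FRZB, a soluble decoy with a Frizzled-like domain, had 6054 (right) and 5455 CPM (left) in the uninjected area, 4621 and 6118 in the hRPGR blebs, 7908 and 7377 in the mScarlet blebs, and 5013 and 3127 in NHP1. WIF1, which binds Wnt proteins directly, had 6668 and 5575 CPM, 5900 and 6455, 5625 and 6051, and 5731 and 5228 in the same order. DKK3 stayed within 2754 to 3215 CPM over the 8 libraries. In the mScarlet blebs their log2 fold changes were 0.31 (interval -0.12 to 0.74), -0.17 (-0.55 to 0.22) and -0.23 (-0.57 to 0.10). These values differed with the depth of the clusters described later: in the deeper ones they were 0.37, -0.17 and -0.15, and in the shallower ones -0.32, -0.73 and -0.85, so that FRZB had the other sign there. Of 18 other Wnt antagonists, receptors and targets tested, 0 were called by edgeR, and 3 were higher and 3 lower at an unadjusted p under 0.05.

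Without the right uninjected library, GPX3 and SLC1A3 were the 2 members called in the mScarlet blebs, where 4.52% of all genes were called, against 0.297% with all libraries. The log2 fold changes of the other 8 were then 0.61 for GLUL, 0.48 for KCNJ10, 0.40 for FRZB, 0.33 for AQP4, 0.04 for CRABP1, -0.02 for WIF1, -0.21 for DKK3 and -0.48 for TF, with edgeR adjusted p-values of 0.195 to 0.962. AQP4 thus changed sign, from -0.04.

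**Figure D3:**
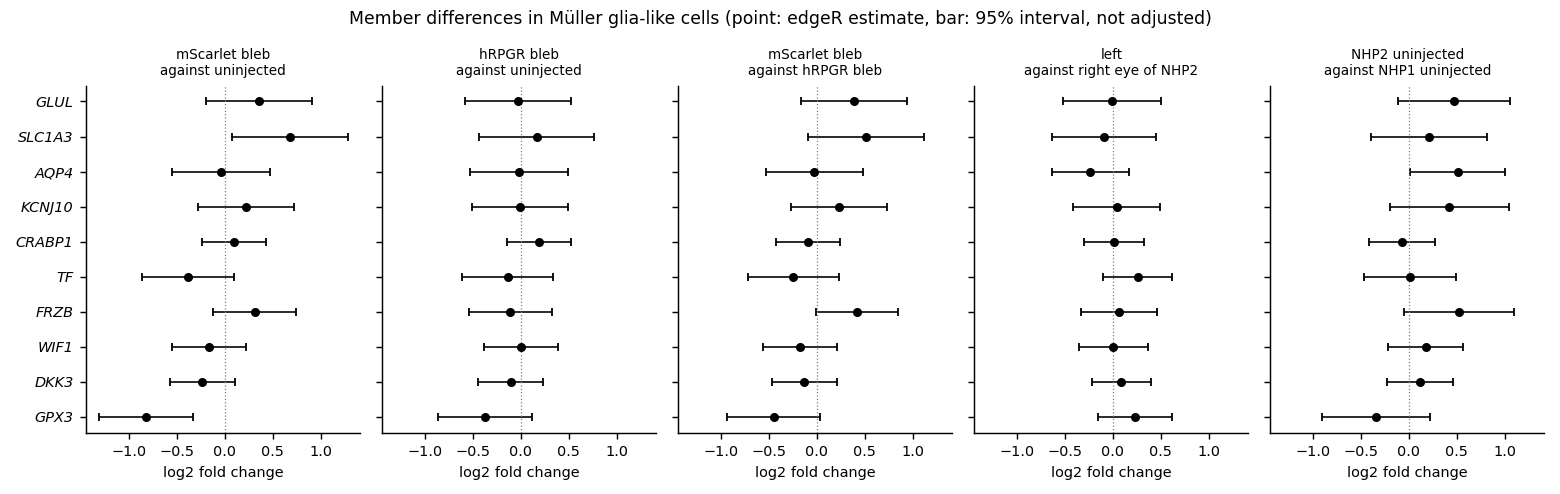
Log2 fold change of each member (rows) in Müller glia-like cells for the 5 comparisons (panels), as the edgeR estimate with its 95% interval, not adjusted for the number of genes. Intervals lie clear of 0 for GPX3 (-0.82) and SLC1A3 (0.68) in the mScarlet blebs and for AQP4 between the animals (0.51), and none of these passed the adjustment.

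Müller glia of the hRPGR blebs were compared with the uninjected area in the same way, using the same uninjected libraries. Here 2 of 12776 genes were called (0.0157%; 1 with eye as a block) and 0 members, with 0 members and 3.6% of all genes at an unadjusted p under 0.05. Members' log2 fold changes lay between -0.37 for GPX3 (SE 0.205, interval -0.86 to 0.11) and 0.19 for CRABP1 (SE 0.139, interval -0.14 to 0.52). Both also were the only 2 members whose hRPGR and uninjected libraries did not overlap, against 26.8% of all genes. The intervals of GLUL (-0.58 to 0.53), SLC1A3 (-0.43 to 0.76), AQP4 (-0.52 to 0.49) and KCNJ10 (-0.51 to 0.49) leave room for differences in either direction. For 7 members the within-eye differences had opposite signs, and the share over all genes was not computed. Without the right uninjected library, log2 fold changes ran from -0.57 for GPX3 and -0.24 for TF to 0.35 for AQP4 and 0.59 for SLC1A3. DKK3 and FRZB had -0.08 and -0.02, and CRABP1, WIF1, GLUL and KCNJ10 had 0.13, 0.15, 0.22 and 0.25, with GLUL, KCNJ10 and AQP4 on the other side of 0 from the fit with all libraries.

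Between the blebs, mScarlet against hRPGR, 1 of 12776 genes was called (0.00783%) and 0 members, with 0 members and 10.7% of genes at an unadjusted p under 0.05. The members nearest to the threshold were FRZB (log2 fold change 0.42, SE 0.181, interval -0.01 to 0.85), GPX3 (-0.45, SE 0.205, -0.94 to 0.04) and SLC1A3 (0.51, SE 0.253, -0.09 to 1.11), with edgeR adjusted p-values of 0.470, 0.484 and 0.508. The p-values of this comparison also rest on the spread of the uninjected libraries, which share the fit. Without the right uninjected library the log2 fold changes were 0.42 for FRZB, -0.45 for GPX3 and 0.52 for SLC1A3. FRZB had 0.44 in the deeper and -0.25 in the shallower clusters alone, so its direction turned with the cells used. In unscaled CPM the libraries of the blebs did not overlap for 6 members, 5 of them higher in the mScarlet blebs (GLUL, SLC1A3, AQP4, KCNJ10 and FRZB) and GPX3 lower, against 47.7% of all genes. After TMM scaling it was 5, with GLUL, SLC1A3 and FRZB higher and WIF1 and GPX3 lower, against 45.7% of genes, and AQP4 had a fitted log2 fold change of -0.02.

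Left eyes were set against right eyes of NHP2 with area as a term. edgeR called 0 of 12776 genes (0.0%), with 412 at an unadjusted p under 0.05 (3.22%) and 0 members among them, while DESeq2 called 22 genes and 0 members. Members' log2 fold changes ran from -0.23 for AQP4 (interval -0.64 to 0.17) to 0.26 for TF (-0.10 to 0.62). GLUL, WIF1, CRABP1 and KCNJ10 were between -0.01 and 0.04, with intervals of up to 0.52 on either side of 0. Without the right uninjected library the members' values ran from -0.05 for CRABP1 to 0.30 for KCNJ10. GLUL was at 0.22, SLC1A3 at 0.24 in place of -0.09, and AQP4 at -0.02. Leaving out the left uninjected library instead gave nearly the same values (0.22, 0.24 and -0.02 for these genes). With area as a term, an area left with 1 eye says nothing about eye, so both fits show the blebs alone. With all libraries the members' median was 0.03, where that of the interferon genes was -1.53 with 0 called by edgeR and 8 of 16 lower at an unadjusted p under 0.05, against 1.35% of all genes.

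Between the animals, the uninjected areas of NHP2 against NHP1, 44 of 13041 genes were called (0.337%) and 0 members. AQP4 was higher in NHP2 by a log2 fold change of 0.51 (SE 0.213, unadjusted p 0.0462, edgeR adjusted p 0.431), and 11.4% of genes passed at that level. FRZB (0.52, interval -0.05 to 1.09), GLUL (0.47, -0.12 to 1.05) and KCNJ10 (0.42, -0.19 to 1.04) were also higher on average. The libraries of the animals did not overlap for 4 members, all higher in NHP2 (GLUL, AQP4, FRZB and DKK3), against 37.4% of all genes. Without the right uninjected library of NHP2, AQP4 was at 0.14, GLUL at 0.23, KCNJ10 at 0.17 and FRZB at 0.44. SLC1A3 was at -0.21 in place of 0.21. The other 5 members then lay between -0.14 for GPX3 and 0.12 for TF. The left NHP1 library held huRPE65 at 85.8 CPM in Müller glia-like cells, and the right one at 1.06 CPM. A rod-like cluster with 97.9% of its cells from that left library had huRPE65 as its first leading gene. Its label, uninjected, was kept as given. Animal, age, vector and all else that differs between the animals cannot be told apart.

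Beside these values, genes of other kinds differed more. In the mScarlet blebs, SERPINA3, a protease inhibitor raised in reactive glia, was at 71.8 (right) and 98.0 CPM (left) against 0 and 0.700 CPM (6 UMIs) in the uninjected area (log2 fold change 7.39, SE 0.459, edgeR adjusted p 0.00652). Of 14 gliosis genes tested it was the 1 called, with 8 higher and 1 lower at an unadjusted p under 0.05 and a median of 0.75. Of 16 interferon genes, 3 were called and rose: CXCL10, GBP3 and IRF1. CXCL10, a chemokine, rose from 0.439 and 0.817 CPM (2 and 7 UMIs) in the uninjected area to 156 and 164 CPM in the hRPGR blebs and 928 and 778 CPM in those of mScarlet, and it was called in each of the 3 comparisons of areas. Of 19 glial transcription factors tested 0 were called, and in the mScarlet blebs 6 were lower and 1 higher at an unadjusted p under 0.05. Of all genes, 8.02% were lower and 6.72% higher at that level. In the lists described here, no other gene was called by edgeR in the 5 comparisons.

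Several of these calls were lost under other settings. Against the uninjected area, CP, SOD2 and IRF1 were lost with eye as a block (adjusted p 0.0740, 0.0587 and 0.0587) and without the left uninjected, either hRPGR or the left mScarlet library (adjusted p 0.0702 to 0.253), and CP also without the right mScarlet library (0.153). Over 17 alternatives their log2 fold changes stayed between 1.82 and 2.49 for CP, 1.48 and 2.17 for SOD2, and 2.19 and 2.92 for IRF1. They ran from 4.29 to 5.18 for GBP3, from 5.64 to 11.7 for SERPINA3 and from 7.88 to 14.8 for CXCL10 (6.13 to 12.4 in the hRPGR blebs), where the highest values come from fits with 0 UMIs in the uninjected libraries and are no bounds. SERPINA3 and GBP3 were lost without the left mScarlet library only (0.0675 for both). CXCL10 stayed called in 17 of 17 alternatives in the mScarlet blebs and in 16 of 17 in the hRPGR blebs, and between the blebs it was called in 8 of 17. There it was lost with the block (adjusted p 0.0515), without any 1 of the 4 bleb libraries (0.234 to 0.536), from cells of at least 3000 UMIs (0.172), with free RNA subtracted (0.131) and in the deeper (0.135) or shallower clusters alone (0.671).

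Other classes' markers in the Müller glia-like sums moved with the areas too. Rod markers had 4386 (right) and 5245 CPM (left) in the uninjected area, 4542 and 3006 in the hRPGR blebs, against 2322 and 2028 in the mScarlet blebs. In the free RNA itself they had 18350 and 37981, 28682 and 14712, and 7629 and 9667 CPM in the same order. The share of free RNA was estimated as the rod-marker level of a sum divided by that of free RNA. It was 23.9% and 13.8%, 15.8% and 20.4%, and 30.4% and 21.0%. Being made from the rod markers, and taking all of them as free RNA, it cannot show whether they follow free RNA. Astrocyte markers (7 detected in the files, PAX2 at 0 in 7 of 8 libraries) share GFAP and CD44 with the list of gliosis genes. They summed to 926 and 951, 946 and 1001, and 1169 and 1433 CPM, and to 588 and 628 CPM in NHP1. Their part in the members' values was not tested. With the estimated free RNA subtracted, 13.8% to 30.4% of each sum, the log2 fold changes in the mScarlet blebs were -0.86 for GPX3 and 0.66 for SLC1A3.

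Within the Müller glia-like class the members split along the depth of the clusters. Clusters 30 and 31 had a median of 9023 to 11719 UMIs per cell over the libraries (231 to 454 cells each), and clusters 7 and 25 had 2271 to 4172 UMIs (212 to 722 cells). Members were kept out of the genes used for clustering. The following is a description without a test, since other genes of the same cells made the clusters.

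SLC1A3 had a higher CPM in the deeper clusters of all 8 libraries, by a median of 2.71-fold (1.95 to 4.70). WIF1 (median 2.42-fold), KCNJ10 (2.16), TF (2.14) and AQP4 (2.06) were higher there in 8 of 8 libraries as well, and GLUL by a median of 1.28-fold with a lowest ratio of 1.01. FRZB and DKK3 were higher in 7 of 8, the left NHP1 library being the exception for both. CRABP1 and GPX3 went the other way in 8 of 8 libraries, higher in the shallower clusters by a median of 1.41-fold (1.30 to 1.73) and 1.38-fold (1.16 to 1.59). Rod markers were at 1853 to 4263 CPM in the deeper and 2589 to 6792 CPM in the shallower clusters, and their part in this split was not tested.

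**Figure D4:**
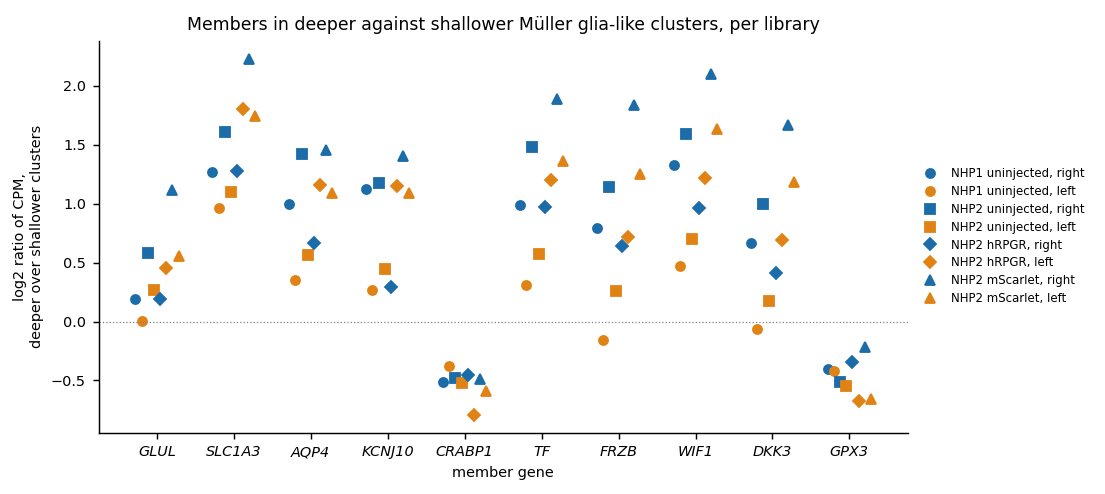
Log2 ratio of CPM in the deeper (30 and 31) over the shallower (7 and 25) Müller glia-like clusters (y axis) for each member (x axis), with 1 point per library, colored by eye and shaped by group. CRABP1 and GPX3 lie below 0 in all 8 libraries, and SLC1A3, WIF1, TF, KCNJ10, AQP4 and GLUL lie above 0 in all 8.

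The share of UMIs from the deeper clusters differed between libraries, from 59.4% in the left NHP1 library to 86.2% in the right mScarlet bleb, with 76.2% in the left one, and was 75.4% and 61.2% in the right and left uninjected areas. The mScarlet comparison was therefore repeated within each kind of cluster. GPX3 had log2 fold changes of -0.70 in the deeper and -0.63 in the shallower clusters, both smaller in size than the -0.82 of all cells. SLC1A3 had 0.64 in the deeper clusters and 0.21 in the shallower ones. In the shallower clusters TF, DKK3 and WIF1 had lower values than in all cells, with -0.86, -0.85 and -0.73 (edgeR adjusted p 0.663, 0.397 and 0.537). In the deeper ones TF had -0.38. Shallower cells had a median of 2271 (right) and 2343 UMIs (left) in the mScarlet blebs, against 2789.5 and 3988.5 in the uninjected area. TF in them was at 8653 and 15177 CPM against 14900 and 31429 CPM, so the groups overlapped. The part of this difference in depth was not tested. GLUL had 0.39 in the deeper and 0.14 in the shallower clusters, CRABP1 0.20 and 0.38, KCNJ10 0.23 and -0.02, and AQP4 -0.06 and -0.15. The difference between the 2 kinds of cluster was not tested. The lowest edgeR adjusted p of a member was 0.287 (GPX3) in the deeper and 0.397 (DKK3) in the shallower clusters. GPX3 had 0.682 in the shallower ones, and SLC1A3 had 0.414 in the deeper and 0.905 in the shallower ones.

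The left hRPGR bleb was the 1 library with many cells in all 4 clusters, so it allowed a look at members beside interferon genes within 1 library. In its deeper clusters, with 234 cells of cluster 30 and 122 of cluster 31, interferon genes were at 3009 and 9257 CPM. TF was at 53004 and 42012 CPM, SLC1A3 at 1973 and 2773, GPX3 at 5392 and 4708, and DKK3 at 3750 and 3748. In the shallower clusters, with 479 cells of cluster 25 and 130 of cluster 7, interferon genes were at 4329 and 12146 CPM. There TF was at 22800 and 14152 CPM, WIF1 at 3816 and 2392, GPX3 at 8393 and 7206, DKK3 at 2445 and 1719, and SLC1A3 at 646 and 668. In the interferon-high cluster TF, GPX3, WIF1 and AQP4 were lower at both depths, with a log2 ratio of -0.16 and -0.67 for WIF1 and of -0.07 and -0.08 for AQP4, and DKK3 was lower in the shallower clusters by a ratio of -0.51. SLC1A3 was higher at both (0.49 and 0.05), as was GLUL (0.11 and 0.03), and KCNJ10 (0.35 and -0.14), FRZB (0.13 and -0.38) and CRABP1 (-0.03 and 0.06) differed in sign between the depths. With 1 library these values have no test.

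Single cells carried most members at once. With cells thinned to 1500 UMIs each, the filter's minimum, so that no cell was lost, the median cell of each library had a UMI of 8 or 9 of the 10 genes, and 99.4% to 100% of cells had at least 5. TF was found in 99.7% to 100% of Müller glia-like cells over the libraries, GPX3 in 99.3% to 100% and GLUL in 98.2% to 99.3%. FRZB (96.5% to 98.5%), WIF1 (90.3% to 98.8%), DKK3 (87.9% to 97.4%) and CRABP1 (88.6% to 94.3%) were nearly as frequent.

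SLC1A3 was found in 76.6% of cells (exact 95% interval 73.1% to 79.9%) and 81.9% (79.1% to 84.4%) in the right and left mScarlet blebs, against 74.6% (71.1% to 77.9%) and 65.1% (62.2% to 67.8%) in the uninjected areas. AQP4 was found in 49.0% to 65.9% and KCNJ10 in 19.4% to 31.6% of cells. In rod-like cells, where these genes serve as background, thinned shares were 2.19% to 8.76% for GLUL, 2.55% to 22.9% for TF, 1.95% to 12.01% for GPX3 and at most 4.40% for the other 7 members. Before thinning, the median depth lay between 4267 and 8209 UMIs in Müller glia-like and between 4228 and 7162 UMIs in rod-like cells. Unthinned, SLC1A3 was found in 86.0% to 89.9% of Müller glia-like and 1.14% to 13.3% of rod-like cells. Intervals cover counting error only.

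Genes with a pattern most like that of a member were found by Pearson's r of log2(CPM + 1) over 75 sums of 11 classes and 8 libraries, which share libraries, depth and the class structure. CRYAB, the small heat shock protein alpha-B crystallin, and DAPL1, one of the markers that named the class, were nearest to TF (r = 0.96 and 0.94) and to FRZB (0.94 and 0.94). MFAP4 and ENSMMUG00000052976, a feature without a symbol, were nearest to AQP4 (0.95 and 0.94) and KCNJ10 (0.95 and 0.96). For the members of the glutamate cycle the nearest genes were STEAP4 and RARRES2 for SLC1A3 (0.92 and 0.89) and CHRDL1 and ASAH1 for GLUL (0.89 and 0.88). CRABP1 was nearest to PRKG1 (0.91). WIF1 and GPX3 shared ENSMMUG00000052976 (0.93 and 0.90) and CLRN1 (0.92 and 0.90).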

How the data were processed

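Retinal cells were captured with a 10x 5-prime kit, and the authors deposited raw UMI counts per gene and barcode from Cell Ranger 8.0.1 with a Mmul_10 reference that also holds the 3 transgene features. The counts are not normalized, and no other columns were left out (0 unmapped). Barcodes were kept as cells with at least 1500 UMIs, 300 genes and at most 20% mitochondrial UMIs. Of 91796 cells, 8604 (9.37%) were removed as doublets with the expected rate of 0.8% per 1000 cells. Cells were clustered over all libraries in scanpy 1.11.5 (3000 variable genes without the members, 40 components, 15 neighbors, Leiden resolution 2), with no batch correction. A cluster was named when at least 3 markers of a class were raised, the score was 1.5 times the next, under 30% were doublets and a marker stood among its 10 leading genes. Of 62 clusters 44 were named, and 21.4% of cells stayed unnamed. Names were rebuilt here, with the naming thresholds set after looking at the clusters, so differences from the study may come from them.

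UMIs were summed per class and library, with at least 20 cells, and tested in edgeR 4.0.16 (R 4.3.3; TMM scaling, quasi-likelihood F test, all genes adjusted together). The 3 area groups of NHP2 shared 1 fit, left against right had area as a term, and the uninjected areas of the animals were compared in a fit of all 4 groups. In the comparisons of areas, p-values measure the spread between 2 eyes of 1 animal. For left against right they measure how the difference between the eyes varies among the areas of NHP2. Between the animals they measure the spread between eyes pooled over the 4 groups. None of them measures the spread between animals. The scripts were tested on simulated data. The split by depth of the clusters and the overlap of groups after TMM scaling were added after seeing the data. Shares were thinned to 1500 UMIs a cell, with exact 95% intervals. Free RNA came from barcodes of 100 to 1000 UMIs. Same-eye libraries come from 1 eye of 1 animal, so eye pairs them, and the correlations of their deviations from the group means were 0.0579, 0.117 and -0.0674. The main fit has no eye block, and the blocked counts are given with the results that they change. Library pairs shared 135 to 255 cell barcodes, near the number chance gives for lists of this length.

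The members and lists were chosen with earlier results of these data known. All 10 members are named, and beyond them the list genes called in a comparison and, for each member, the 2 genes most like it. Results that need certain other genes are not reported here. Of the 26533 features, 16678 had symbols in the files and 564 more were matched by ID.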

Additional observations from a re-analysis of the deposited data

Results flagged for a closer look

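For 11 pairs of a member and a comparison between areas of NHP2, the right and the left eye moved in opposite directions, with 1 library per eye and area, so the difference between eyes was not tested. In the hRPGR blebs against the uninjected area, the log2 ratio of CPM was -0.51 (right) and 0.46 (left) for GLUL, -0.27 and 0.70 for SLC1A3, and -0.46 and 0.45 for KCNJ10. It was -0.25 and 0.30 for AQP4, -0.39 and 0.17 for FRZB, -0.18 and 0.21 for WIF1, and -0.22 and 0.02 for DKK3. All 7 were lower in the right bleb, where the right uninjected library had interferon genes at 27697 CPM and the right hRPGR bleb at 28081 CPM. The 7 ratios of an eye use the same libraries, so their common direction is not independent evidence. The share of all genes with opposite signs was not computed. In the mScarlet blebs against the uninjected area, AQP4 had -0.24 and 0.42, and WIF1 -0.25 and 0.12. Between the blebs, mScarlet against hRPGR, CRABP1 had 0.14 and -0.15, and DKK3 0.05 and -0.12.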

How the results depend on the processing

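Numbers of genes called in Müller glia-like cells and the members' fold changes varied with the setting. Over 860 values of members under alternatives, 4 passed the threshold (GPX3 3 times, SLC1A3 once), which no member passed as reported, so the rest says nothing about stability. Of the 860 values 76 had the other sign, the largest of these by its reported value being FRZB between the blebs (0.42, and -0.25 in the shallower clusters). GPX3 ranged from -1.02 to -0.58 and SLC1A3 from 0.21 to 1.11 in log2 fold change (adjusted p 0.00307 to 0.682 and 0.0285 to 0.905 over 17 alternatives each).
In the mScarlet blebs against the uninjected area, 38 genes were called, against 421 with DESeq2, 10 with eye as a replicate block, 71 with library size only (59 raised and 12 lowered, in place of 26 and 12), 374 without the filter on low counts, 25 with doublets kept, 76 from cells of at least 3000 UMIs and 5 with free RNA subtracted. For hRPGR against uninjected the 2 calls became 25 (DESeq2), 9 (no filter) or 1 (eye block, size factors of DESeq2, doublets kept, free RNA subtracted, or members among the variable genes). Between the blebs the 1 call became 150 (DESeq2), 61 (no filter) or 0 (at least 3000 UMIs, or free RNA subtracted), and the block gave 1. Left against right had 22 calls with DESeq2 and 3 without the filter, and tests eye itself, so it has no block. NHP2 against NHP1 had 44 calls, 146 with DESeq2, 281 without the filter, 21 with free RNA subtracted and 37 with the block. With the clusters split by depth, chosen after seeing the data, the deeper clusters gave 0 calls between the blebs, and the shallower ones gave 24, 0, 8, 34 and 21 in the order above. The block changed no call of a member.
Leaving out 1 library gave 1 (without the left mScarlet bleb) to 599 calls (without the right uninjected area) for mScarlet, 1 to 27 (without the right uninjected area) for hRPGR, 0 to 69 between the blebs (69 without either uninjected library), 0 to 23 for left against right (23 without either mScarlet library) and 14 (without either hRPGR library) to 105 (without the right NHP1 library) between animals. A group left with 1 library was assumed to vary like the others. The cause of these changes was not tested.
Without thinning, the mean share of Müller glia-like cells with a UMI rose from 98.8% to 99.7% for GLUL, 72.3% to 87.8% for SLC1A3, 59.1% to 82.8% for AQP4, 26.4% to 61.0% for KCNJ10, 91.3% to 98.6% for CRABP1, 97.5% to 99.2% for FRZB, 95.7% to 98.3% for WIF1, 93.2% to 97.6% for DKK3 and 99.7% to 99.99% for GPX3, so shares depend on depth.
For list genes in the mScarlet blebs, subtraction of free RNA ended the calls of CP, SOD2 and IRF1 (adjusted p 0.0844 to 0.0937), with log2 fold changes of 2.10, 2.12 and 2.56 against 2.12, 1.85 and 2.59, keeping doublets those of CP and SOD2, and the shallower clusters alone those of CP and IRF1.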
